A study of Mus musculus with 4 samples.

Results

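The 36 genes described here make cholesterol and fatty acids or control their making, and were taken from a written list of pathway members: enzymes from acetoacetyl-CoA to cholesterol, enzymes that build, lengthen and desaturate fatty acids, the cytosolic acetyl-CoA supply, and the sterol-sensing regulators. A gene was used when a feature of the array carried its symbol and no other, and of several such features the brightest on average was taken. This gave 33 of the 36 genes, among 22180 genes so named on the array. Acat2, Idi1 and Scd2 had no feature of their own and are not analysed here. All 33 measured genes lay above the brightness filter used for testing.

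RNA came from mouse macrophages, phagocytes of the innate immune system, grown out of bone marrow for 6 days with L-cell supernatant and then given 100 ng/ml of lipopolysaccharide (LPS), a bacterial cell wall component, for 2 hours. The knockout cells were PP2ACαfl/fl;lyM-Cre, in which a myeloid Cre deletes exon 1 of Ppp2ca, the gene of the catalytic subunit alpha of the serine/threonine phosphatase PP2A, and the control cells were PP2ACαfl/fl, with the same floxed alleles and no Cre. Each genotype had 2 arrays. The labels call them biological replicates and do not say whether a mouse gave more than 1 array. The p-values therefore measure the spread between these arrays, with each gene's variance drawn in part from all tested genes. Cre and the deletion occur together, so their effects cannot be told apart, and since all cells had received LPS the comparison does not address the response to LPS itself.

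Ppp2ca read 4.36 and 3.39 log2 units in knockout macrophages, against 8.25 and 7.59 in control macrophages, a fall by 4.04 (SE 0.36, limma adjusted p = 0.0076). The median of all features lay between 3.50 and 3.57 on the 4 arrays, and arrays correlated at r = 0.986 to 0.990 across features. Of 12 macrophage markers, 11 lay above the filter, and their mean level was 10.46 and 10.47 log2 units in knockout macrophages, against 10.34 and 10.21 in control macrophages. Of these 11 markers, Fcgr1, an IgG receptor, rose by 0.94 and Aif1, an actin-binding protein, by 0.92 (limma adjusted p = 0.016 for each), against 3.3% of all tested genes that rose. Adgre1, the F4/80 antigen, had the next largest difference of the 11, 0.32, and did not pass, and Cd163 lay below the filter. Of the 8 listed markers of adipocytes and hepatocytes, cells known for high lipid synthesis, 6 lay below the filter, and neither of the other 2, Alb and Ttr, passed the test.

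Sterols and fatty acids are both built from cytosolic acetyl-CoA. The mevalonate pathway carries it through isoprenoid units to squalene, lanosterol and cholesterol, while acetyl-CoA carboxylase and fatty acid synthase build palmitate, which elongases and desaturases then modify. Many genes of both routes are known targets of the SREBP transcription factors, membrane proteins that SCAP carries from the endoplasmic reticulum to the Golgi for cleavage when sterols are low and that INSIG proteins hold back when sterols are high. SREBPs are known to act with NF-Y and Sp1 at promoters, and in macrophages both routes are known to change during Toll-like receptor signalling.

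Promoter windows, from 250 bases before to 50 bases after a transcription start, were available from RefSeq (GRCm38.p6) for 29 of the 36 genes, 27 of them measured. The files do not name the genome build behind the array, so the windows describe the genes and not the probes. The windows printed below belong to the genes with the lowest differences that have one (Fasn, Fads2, Hsd17b7 and Cyp51) and to 2 sterol enzymes that did not pass (Hmgcs1 and Ebp). Capitals mark the NF-Y motif (CCAAT, or ATTGG on the other strand) and the SREBP motif (TCACNCCAC, on either strand). The Fasn window lies at chr11:120824498-120824797 (minus strand), that of Fads2 at chr19:10101454-10101753 (minus strand) and that of Hsd17b7 at chr1:169969156-169969455 (minus strand). The Cyp51 window lies at chr5:4104648-4104947 (minus strand), that of Hmgcs1 at chr13:119690101-119690400 (plus strand) and that of Ebp at chrX:8193463-8193762 (minus strand). Each is written 5′ to 3′ on its gene's strand.
Fasn: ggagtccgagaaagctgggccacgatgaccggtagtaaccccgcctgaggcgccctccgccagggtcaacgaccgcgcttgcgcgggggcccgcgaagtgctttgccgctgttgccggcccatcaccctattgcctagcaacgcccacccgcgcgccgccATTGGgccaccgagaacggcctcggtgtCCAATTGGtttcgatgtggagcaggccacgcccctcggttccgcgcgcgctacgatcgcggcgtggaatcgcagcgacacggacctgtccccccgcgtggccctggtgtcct
Fads2: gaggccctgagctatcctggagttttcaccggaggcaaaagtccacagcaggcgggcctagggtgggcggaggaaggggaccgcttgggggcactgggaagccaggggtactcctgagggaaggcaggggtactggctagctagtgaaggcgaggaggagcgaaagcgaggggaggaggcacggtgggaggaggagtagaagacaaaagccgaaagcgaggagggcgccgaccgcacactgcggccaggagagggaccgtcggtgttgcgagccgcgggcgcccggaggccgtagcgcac
Hsd17b7: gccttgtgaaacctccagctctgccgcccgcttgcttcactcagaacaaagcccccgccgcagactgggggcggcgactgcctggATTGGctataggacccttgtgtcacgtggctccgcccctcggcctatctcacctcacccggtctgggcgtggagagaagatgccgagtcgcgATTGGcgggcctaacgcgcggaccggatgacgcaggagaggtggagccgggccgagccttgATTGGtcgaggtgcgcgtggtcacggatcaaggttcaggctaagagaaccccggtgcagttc
Cyp51: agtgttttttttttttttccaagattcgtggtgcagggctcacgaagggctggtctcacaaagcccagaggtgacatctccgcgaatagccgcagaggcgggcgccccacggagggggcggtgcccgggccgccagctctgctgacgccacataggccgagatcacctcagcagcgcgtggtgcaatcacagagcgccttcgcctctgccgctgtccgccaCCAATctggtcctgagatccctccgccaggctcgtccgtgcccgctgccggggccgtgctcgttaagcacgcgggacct
Hmgcs1: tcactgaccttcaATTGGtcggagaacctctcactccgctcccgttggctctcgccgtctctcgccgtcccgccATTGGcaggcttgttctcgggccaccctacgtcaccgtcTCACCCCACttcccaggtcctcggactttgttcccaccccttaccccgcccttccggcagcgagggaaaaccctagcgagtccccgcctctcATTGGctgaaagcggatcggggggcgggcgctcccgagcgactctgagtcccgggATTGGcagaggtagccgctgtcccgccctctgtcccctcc
Ebp: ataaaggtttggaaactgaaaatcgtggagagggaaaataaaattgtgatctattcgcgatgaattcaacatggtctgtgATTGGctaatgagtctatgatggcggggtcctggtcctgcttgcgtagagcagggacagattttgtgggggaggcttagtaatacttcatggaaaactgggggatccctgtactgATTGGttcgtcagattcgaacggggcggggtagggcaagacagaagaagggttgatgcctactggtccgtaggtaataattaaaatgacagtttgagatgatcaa

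The search covered both strands for 4 motifs: CCAAT (NF-Y), GGGCGG (Sp1), TCACNCCAC (SREBP) and the E-box CACGTG, in the first window listed for each gene. An NF-Y motif lay in 13 of the 15 sterol enzyme windows (86.7%), in 4 of 5 windows of regulators, in both windows of the acetyl-CoA supply genes and in 3 of 7 windows of fatty acid enzymes (42.9%), against 38.2% of the windows of 9838 tested genes. Counting every window of a gene raised the sterol share to 93.3%, the fatty acid share to 57.1% and the share of tested genes to 42.0%. An Sp1 motif lay in 14 of the 15 sterol windows and in 3 of the 7 fatty acid windows, against 61.9% of the windows of tested genes. The exact SREBP motif occurred in the Hmgcs1 window alone among the 29, against 1.13% of windows of tested genes, and an E-box occurred in 5 of the 29, against 10.2%.

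Genes that fell and genes that did not pass both held the motifs. Among the windows of measured genes, 6 of 7 from genes that fell held an NF-Y motif, against 15 of 20 from genes that did not pass. The share among windows of tested genes was 38.2%. Fdps, Fdft1, Sqle and Stard4 also fell but had no window, so they are missing from this comparison. The Fasn window held 3 NF-Y motifs, a pair of which overlap, while the Fads2 window held none and a lone Sp1 motif. In Ebp, which did not pass the test, the window held 2 NF-Y motifs. An NF-Y and an Sp1 match overlapped in Elovl1. A match shows only that these letters are in the window.

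**Figure D1:**
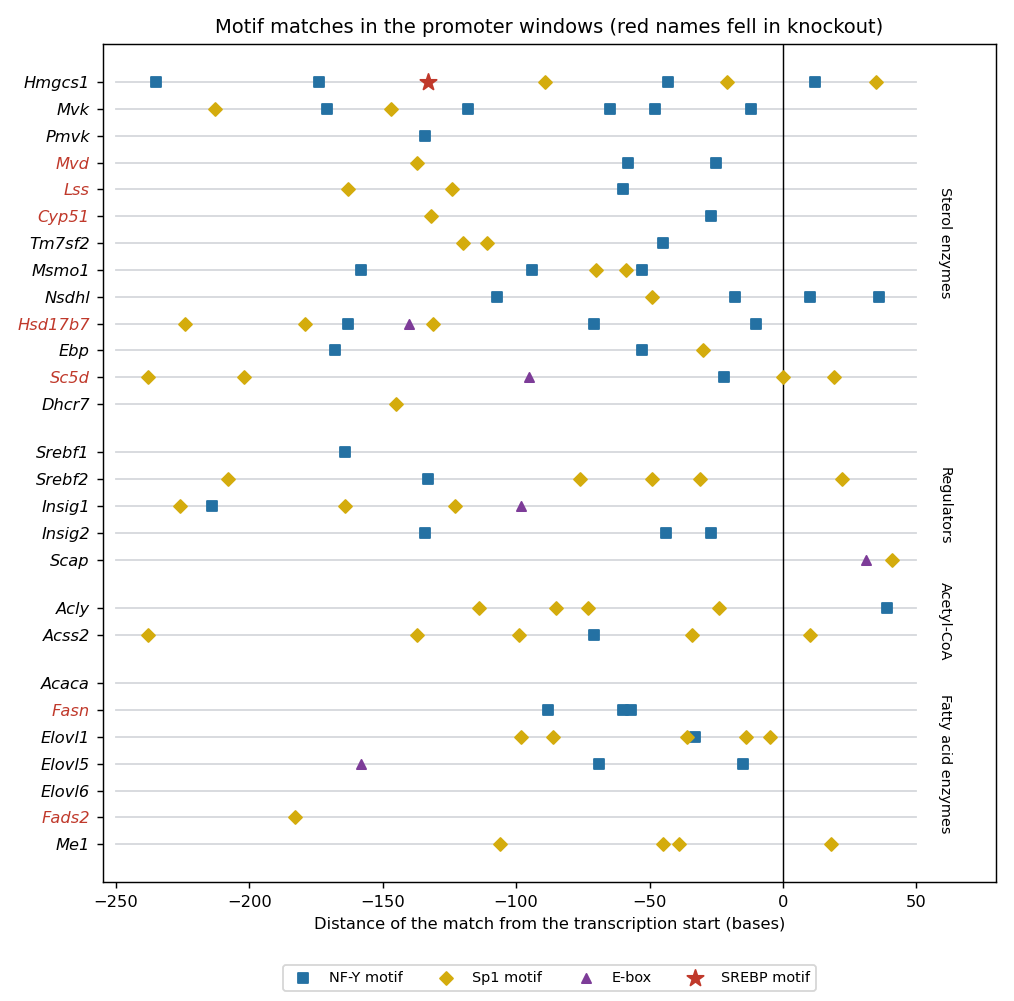
Positions of the 4 motifs in the promoter windows of the 27 measured genes that have one. The x axis is the distance of each match from the transcription start in bases, each line is a gene, and red names fell in knockout macrophages. NF-Y motifs (blue squares) lie in 13 of 15 sterol enzyme windows when Idi1 and Acat2, which were not measured and are not drawn, are counted, and the only SREBP match (red star) is in Hmgcs1.

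Of the 33 measured genes, 11 fell and none rose by limma's test (adjusted p under 0.05 over 12542 tested genes). The share that fell was 33.3%, against 3.49% of all tested genes that fell and 3.3% that rose. The other 22 did not pass, and 17 of the 33 were lower with an unadjusted p under 0.05, against 12.1% of all tested genes. On group means, 9 of the 33 were at least 1.5-fold lower, the fold cutoff of the study's design text, against 2.65% of all tested genes, and none was 1.5-fold higher, against 2.59%. The median difference between knockout and control was -0.29 log2 units over the 33 genes and 0.01 over all tested genes. In 25 of the 33 both knockout arrays lay below both control arrays, against 26.5% of all tested genes. In 7 the groups overlapped, and in Dhcr7 alone both knockout arrays lay above both control arrays, against 28.8% of all tested genes.

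These calls depended on having all 4 arrays. Without control replicate 1 or without control replicate 2, the calls that passed were those of Fasn and Fads2, and without knockout replicate 2 that of Fasn (adjusted p = 0.0494). Without knockout replicate 1 none of the 33 passed by limma, and the lowest adjusted p was that of Fasn at 0.0509. With no brightness filter 6 of the 33 fell.

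**Figure D2:**
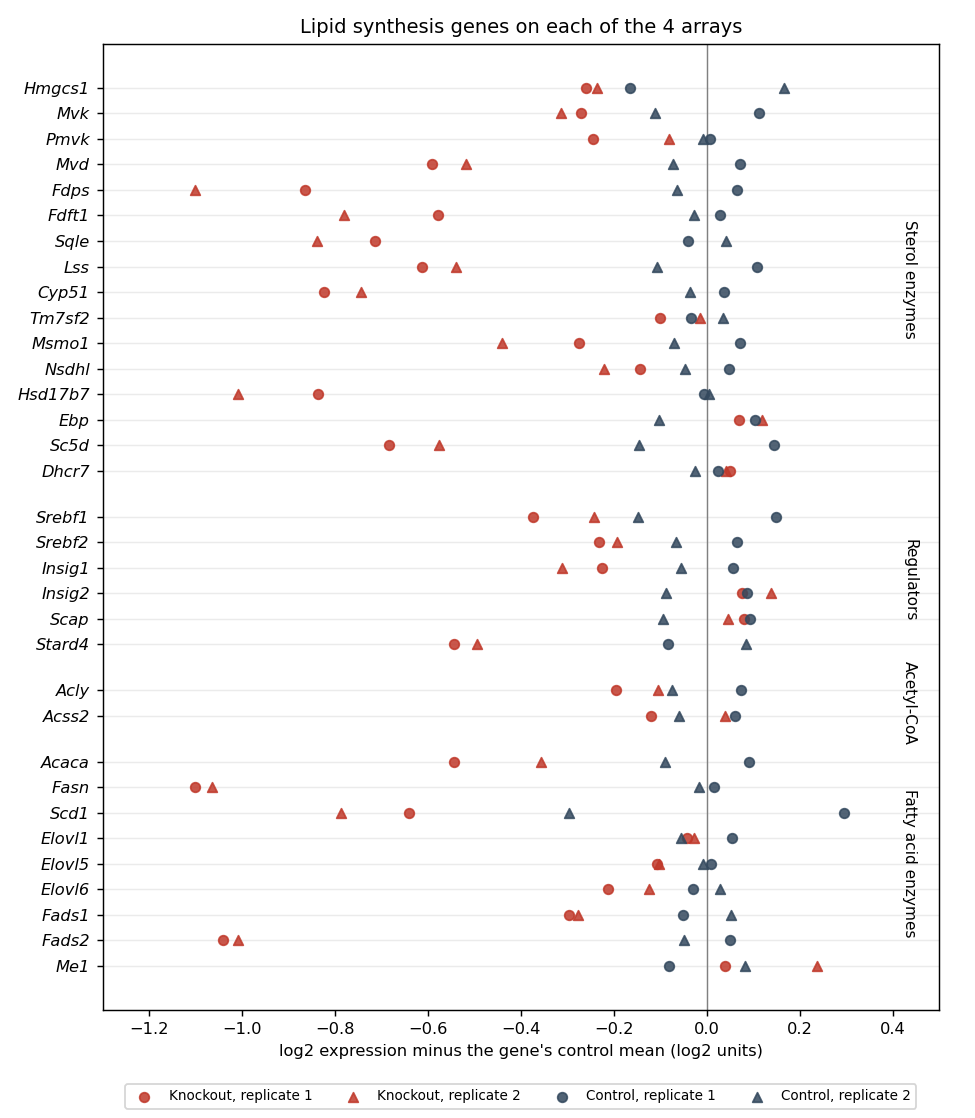
Log2 expression of the 33 measured genes on each array, minus the gene's control mean (x axis, log2 units). Red symbols are the knockout arrays and dark symbols the control arrays, and circles and triangles are replicates 1 and 2. The knockout arrays lie left of the control arrays in 25 genes, furthest in Fasn, Fads2, Fdps and Hsd17b7.

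Among the enzymes of the mevalonate pathway and sterol synthesis, 8 of 16 fell, against 3.49% of all tested genes, and none rose. Their median difference was -0.46 log2 units. The first 3 measured steps did not pass. Hmgcs1, which condenses acetoacetyl-CoA to HMG-CoA, read 9.57 and 9.59 in knockout macrophages, against 9.66 and 9.99 in control macrophages. Its difference of -0.25 did not pass (95% interval -0.57 to 0.08), and the control arrays were 0.33 apart. The mevalonate kinase gene Mvk, at -0.29 (-0.56 to -0.02), and the phosphomevalonate kinase gene Pmvk, at -0.16 (-0.41 to 0.08), did not pass the adjusted test either.

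The next 2 measured steps both fell. Mvd, which makes isopentenyl pyrophosphate, read 4.86 and 4.93 in knockout macrophages, against 5.52 and 5.38 in control macrophages, a fall by 0.55 (SE 0.10, limma adjusted p = 0.036). Fdps, the farnesyl pyrophosphate synthase at the branch point of sterols and other isoprenoids, read 6.91 and 6.67 in knockout macrophages, against 7.84 and 7.71 in control macrophages. Its difference of -0.98 (SE 0.12, limma adjusted p = 0.014) was the lowest of the sterol enzymes and left 50.6% of the control level. Both genes had groups that did not overlap.

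All 3 enzymes between farnesyl pyrophosphate and lanosterol fell. The squalene synthase gene Fdft1 read 8.09 and 7.89 in knockout macrophages, against 8.70 and 8.64 in control macrophages, a fall by 0.68 (SE 0.10, limma adjusted p = 0.028). Sqle, the squalene epoxidase that catalyses a rate-limiting oxygenation, read 8.15 and 8.03 in knockout macrophages, against 8.82 and 8.91 in control macrophages. The Sqle difference was -0.78 (SE 0.09, limma adjusted p = 0.015). The lanosterol synthase gene Lss, which closes the sterol rings, read 6.36 and 6.43 in knockout macrophages, against 7.08 and 6.86 in control macrophages, a fall by 0.58 (SE 0.11, limma adjusted p = 0.041).

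After lanosterol the enzymes differed among themselves, and 3 of 8 fell. Cyp51, the lanosterol 14-alpha demethylase, read 7.92 and 8.0 in knockout macrophages, against 8.78 and 8.71 in control macrophages, and its difference was -0.78 (SE 0.09, limma adjusted p = 0.014). Hsd17b7, a sterol 3-ketoreductase that acts in C4 demethylation, read 6.69 and 6.51 in knockout macrophages, against 7.52 and 7.53 in control macrophages. It fell by 0.92 (SE 0.10, limma adjusted p = 0.012), and its control arrays were 0.01 apart. Sc5d, the C5 desaturase, read 7.60 and 7.71 in knockout macrophages, against 8.43 and 8.14 in control macrophages, a fall by 0.63 (SE 0.13, limma adjusted p = 0.047).

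The partners of Hsd17b7 in C4 demethylation gave smaller values. Msmo1, the C4 methyl oxidase, differed by -0.36 (95% interval -0.62 to -0.09) and the C4 decarboxylase gene Nsdhl by -0.18 (-0.41 to 0.05), and neither passed. The values nearest 0 among the 16 sterol enzymes belonged to 3 genes. The C14 reductase gene Tm7sf2 differed by -0.06 (-0.28 to 0.17), the sterol isomerase gene Ebp by 0.09 (-0.17 to 0.36) and Dhcr7, which encodes the C7 reductase, by 0.05 (-0.17 to 0.26). Dhcr7 read 6.93 and 6.92 in knockout macrophages, against 6.90 and 6.85 in control macrophages. The upper ends of these intervals leave a modest rise possible, and the lower ends lie above the differences of Cyp51, Sc5d and Hsd17b7.

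**Figure D3:**
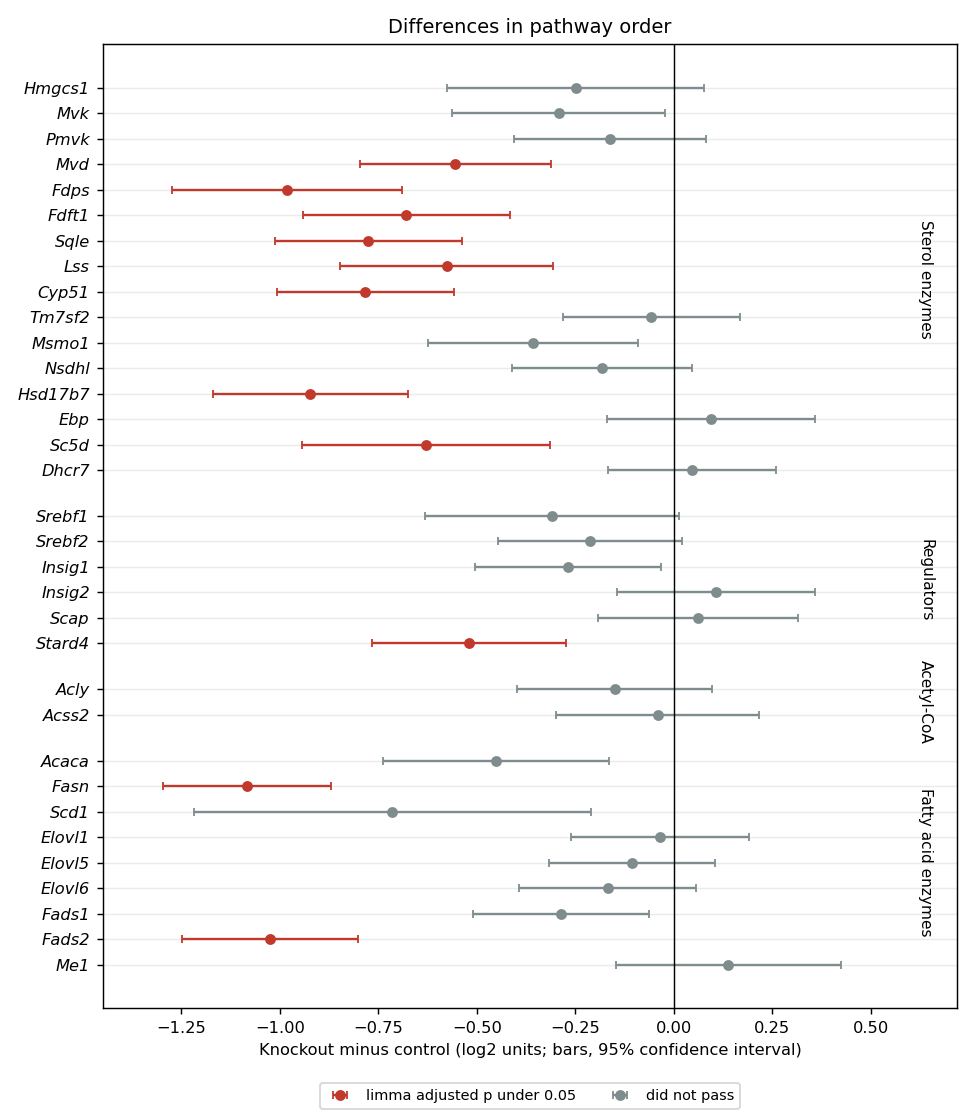
Knockout minus control difference of each measured gene (x axis, log2 units) with its 95% confidence interval from limma, in pathway order. Red points passed the adjusted test and grey points did not. The run from Mvd to Cyp51 lies between -0.98 and -0.55, while Tm7sf2, Ebp and Dhcr7 lie between -0.06 and 0.09.

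Of the 9 measured fatty acid enzymes, 2 fell (22.2%, against 3.49% of all tested genes) and none rose, with a median of -0.29. Fasn, the multienzyme that builds palmitate from malonyl-CoA, read 6.22 and 6.26 in knockout macrophages, against 7.34 and 7.31 in control macrophages. Its difference of -1.08 (SE 0.09, limma adjusted p = 0.0060) left 47.2% of the control level and was rank 53 from the lowest of 12542 tested genes. Acaca, the carboxylase that supplies malonyl-CoA, read 6.18 and 6.37 in knockout macrophages, against 6.82 and 6.64 in control macrophages, and its difference of -0.45 (95% interval -0.74 to -0.16) did not pass (limma adjusted p = 0.082).

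The desaturases gave unlike values. Fads2, the delta-6 desaturase of polyunsaturated fatty acids, read 7.40 and 7.43 in knockout macrophages, against 8.49 and 8.39 in control macrophages, a fall by 1.03 (SE 0.09, limma adjusted p = 0.0075) to 49.1% of the control level. Fads1, the delta-5 desaturase that acts after it, read 9.60 and 9.62 in knockout macrophages, against 9.85 and 9.95 in control macrophages. The Fads1 difference of -0.29 (95% interval -0.51 to -0.06) did not pass, and the intervals of the 2 genes did not overlap. Scd1, the delta-9 desaturase that makes oleate, read 4.10 and 3.96 in knockout macrophages, against 5.04 and 4.45 in control macrophages. Its difference of -0.71 (-1.22 to -0.21) did not pass (limma adjusted p = 0.10), its control arrays were 0.59 apart, and its knockout values were close to the filter level, 3.53.

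The elongases and the malic enzyme lay near 0. Elovl6, which lengthens palmitate, differed by -0.17 (95% interval -0.39 to 0.06), Elovl5, which lengthens polyunsaturated chains, by -0.11 (-0.32 to 0.10) and Elovl1, which makes very long saturated chains, by -0.04 (-0.26 to 0.19). Me1, a cytosolic source of NADPH, read 5.64 and 5.84 in knockout macrophages, against 5.52 and 5.68 in control macrophages, and its difference of 0.14 (-0.15 to 0.42) was the highest of the 33 genes. The enzymes that supply cytosolic acetyl-CoA to both routes did not pass. Acly, which splits citrate, differed by -0.15 (-0.40 to 0.10), and Acss2, which uses acetate, by -0.04 (-0.30 to 0.22).

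Of the 6 regulators and sterol carriers, 1 fell, against 3.49% of all tested genes, and none rose, with a median of -0.24. Stard4, a carrier of cholesterol between membranes, read 6.07 and 6.12 in knockout macrophages, against 6.53 and 6.70 in control macrophages, a fall by 0.52 (SE 0.10, limma adjusted p = 0.042). The gene of SREBP2, Srebf2, read 9.05 and 9.08 in knockout macrophages, against 9.34 and 9.21 in control macrophages, and its difference of -0.21 (95% interval -0.45 to 0.02) did not pass. Srebf1 read 6.66 and 6.79 in knockout macrophages, against 7.18 and 6.88 in control macrophages. The Srebf1 difference of -0.31 (-0.63 to 0.01) did not pass, although in both SREBP genes the knockout arrays lay below the control arrays.

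Insig1, itself a known SREBP target, was the brightest of the 33 features and read 10.18 and 10.10 in knockout macrophages, against 10.46 and 10.35 in control macrophages. Its difference of -0.27 (95% interval -0.50 to -0.03) did not pass the adjusted test (limma adjusted p = 0.16). Insig2, at 0.11 (-0.14 to 0.36), and Scap, at 0.06 (-0.19 to 0.32), had overlapping groups. A second, dim feature of Scap differed by 0.21.

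Set side by side, the sterol and fatty acid branches had close means and different medians. Of the sterol enzymes 8 of 16 fell, with a median of -0.46, and of the fatty acid enzymes 2 of 9, with a median of -0.29. Differences were negative in 14 of the 16 and in 8 of the 9. The median of the sterol branch was 0.17 log2 units lower (-0.17), against an SD of 0.04 between replicate arrays. That SD leaves out the spread between genes, whose differences had an SD of 0.34 in the sterol and 0.44 in the fatty acid branch. The mean difference was -0.44 for the sterol enzymes and -0.41 for the fatty acid enzymes. By array, the sterol enzymes averaged -0.43 and -0.45 in the knockout macrophages relative to each gene's control mean, and the fatty acid enzymes -0.44 and -0.39. The control arrays lay at 0.04 and -0.04 in both branches. The order of the counts depended on having every array, and was not kept with any array left out, control or knockout. It was kept with no filter, where 4 sterol enzymes and 2 fatty acid enzymes fell. The difference in counts was not tested.

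The spread within each branch exceeded the distance between them. Sterol enzymes ran from -0.98 to 0.09 and fatty acid enzymes from -1.08 to 0.14. The sterol median minus the fatty acid median was -0.10 without control replicate 1 and -0.29 without control replicate 2. It was -0.29 with Acly and Acss2 counted among the fatty acid enzymes. Leaving out Me1, the NADPH source with the highest difference of the branch (0.14), would instead narrow the gap, and that median was not computed. No test of the branch difference is given, since the genes were chosen with results of these data known.

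**Figure D4:**
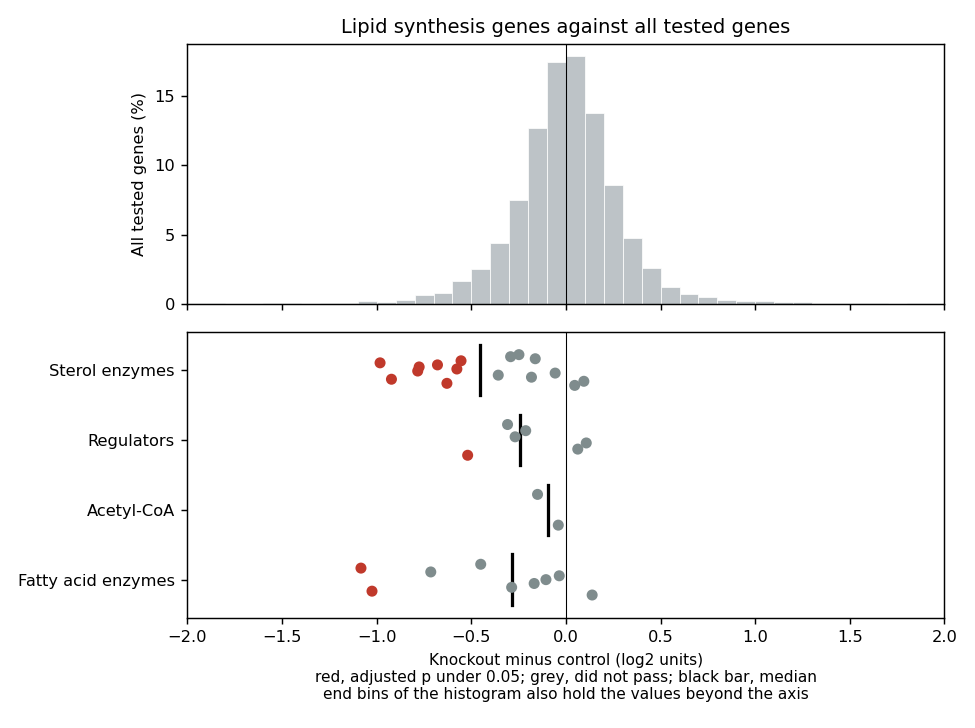
Upper panel, the distribution of the knockout minus control difference over the 12542 tested genes (y axis, percent of genes). Lower panel, the same difference for each measured lipid synthesis gene by role, where red points passed the adjusted test and black bars are medians. The medians lie at -0.46 for sterol enzymes, -0.24 for regulators, -0.10 for the acetyl-CoA supply and -0.29 for fatty acid enzymes, against 0.01 for all tested genes.

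The neighbouring pathways were read as separate lists, beside the 6.79% of all tested genes that passed. These lists are short, and differences between their counts were not tested. Of 11 tested genes of other sterol and isoprenoid synthesis steps, none passed by limma (3 had an unadjusted p under 0.05, against 24.7% of all tested genes), with a median of -0.09. The lowest was Cyb5b, a cytochrome b5, at -0.45 (adjusted p = 0.066). Of 14 genes of SREBP processing and sterol sensing none passed (4 at an unadjusted p under 0.05, which is near that share), with a median of -0.08, and the lowest was Mid1ip1, whose protein promotes acetyl-CoA carboxylase assembly, at -0.39. Of 9 genes that supply NADPH none passed (3 at an unadjusted p under 0.05, against 24.7%), although all 9 differences were negative, with a median of -0.21 and Mthfd1, a folate enzyme, lowest at -0.55. Against this, 48.7% of all tested genes had a negative difference.

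Genes of cholesterol transport and storage changed in both directions. Of 15 tested, 1 fell (6.67%) and 3 rose (20%), against 3.49% and 3.3% of all tested genes. The 3 that rose include Vldlr, which is set aside below, so the 20% is not read as a result. Gramd1b, which moves cholesterol from the plasma membrane to the endoplasmic reticulum, read 8.26 and 8.29 in knockout macrophages, against 9.19 and 8.99 in control macrophages, a fall by 0.82 (SE 0.10, limma adjusted p = 0.016). Ch25h, which makes 25-hydroxycholesterol, a known inhibitor of SREBP processing, rose by 0.63 to 7.36 and 7.19 in knockout macrophages, against 6.69 and 6.60 in control macrophages. The sterol exporter gene Abcg1 rose by 0.46. Vldlr, a lipoprotein receptor, read 3.54 and 3.38 in control macrophages, with a mean below the filter level of 3.53. It passed the filter only through its higher knockout values, so no conclusion is drawn from its rise by 0.51. The other 11 of the 15 tested genes of that list did not pass.

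Few of the remaining fatty acid genes passed. Among 12 tested genes of other synthesis, elongation and desaturation steps, 1 fell and 1 rose (8.33% each, against 3.49% and 3.3% of all tested genes). Fads3, a desaturase homologue, fell by 0.75 (SE 0.13, limma adjusted p = 0.035). Hacd4, a dehydratase of chain elongation, rose by 0.80 (SE 0.10, limma adjusted p = 0.017). Of 18 genes of fatty acid activation and glycerolipid synthesis, Lpin2, a phosphatidate phosphatase, rose by 0.48 and none fell. That is 5.56% of the list higher, against 3.3% of all tested genes. Of 15 fatty acid oxidation genes none passed by limma (3 at an unadjusted p under 0.05, against 24.7%), and the median was 0.07. The carnitine carrier gene Slc25a20 had the largest of these differences, at 0.39.

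**Figure D5:**
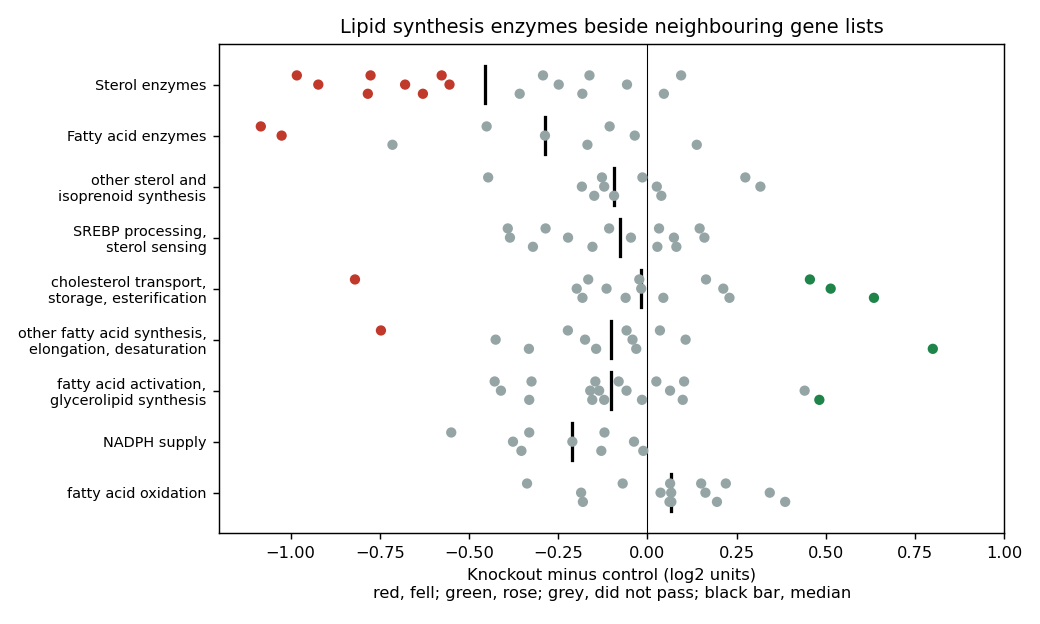
Knockout minus control differences (x axis, log2 units) of the sterol and fatty acid enzymes and of 7 lists of neighbouring genes. Each point is a gene, red points fell, green points rose, grey points did not pass, and black bars are medians. The sterol enzymes have the lowest median, -0.46, and fatty acid oxidation the highest, 0.07.

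Other gene groups moved alongside. Of 19 cell cycle genes 8 fell and none rose, against 3.49% of all tested genes that fell and 3.3% that rose. The lowest were Rrm2, a ribonucleotide reductase subunit (-1.04), Uhrf1, which maintains DNA methylation (-0.88), Mcm2, a subunit of the replicative helicase (-0.87), and Cdk1, the mitotic kinase (-0.86). The 19 genes had a mean level of 6.66 and 6.61 log2 units in knockout macrophages, against 7.16 and 7.09 in control macrophages. Of 7 tested monocyte markers 3 rose (Ms4a4c, Ccr2 and Ly6c2), against 3.3% of all tested genes, and F13a1 fell, against 3.49%. Their mean level was 6.22 and 6.26 log2 units in knockout macrophages, against 5.82 and 5.87 in control macrophages. In bulk RNA fewer cells of a type and less RNA per cell cannot be told apart, and the part of these groups in the lipid synthesis result was not tested. Neutrophil, dendritic, T and NK, B, stromal and erythroid lists had 6, 3, 2, 1, 2 and 1 tested markers, and none of them passed by limma. An unadjusted p under 0.05 was seen for 1 marker each of the neutrophil, the dendritic and the T and NK list.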

How the data were processed

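The deposited table holds log2 values of 41345 features on 4 one-colour whole-transcript arrays. The authors computed these log2 values by robust multi-array averaging (RMA in oligo, versions not given in the sources used here), with background adjustment and normalization, per the series' design text and the submitters' processing notes. Normalization between arrays hides a change in the total RNA of a cell. Per the labels' protocols, each array used 400 ng of total RNA. GEO's platform annotation gave a single symbol to 23521 features, several symbols to 1814 and no symbol to 16010. Gene IDs of 23328 features matched RefSeq (GRCm38.p6), and 0 symbols changed.

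Of 22180 genes, 12542 with a mean of at least 3.53 log2 units (the median over all features) were tested with limma 3.58.1 in R 4.3.3, knockout against control, two-sided, with Benjamini-Hochberg adjustment at 0.05. The fit draws each gene's variance towards a value shared over all tested genes, so an SE does not rest on that gene's spread alone. A gene is said to rise or fall when it passed. The fit was tested on simulated data. The number of arrays limits the precision. Alternatives were other filters, normalizations, feature rules and prior variances, the replicate number as a block, and each array left out. Members and lists were chosen with earlier results of these data known. All members are named. From each other gene list, up to 4 genes that passed are named or, where none did, the gene with the largest absolute difference. From a cell type list with genes that passed, the 3 with the largest absolute difference are named, and Ly6c2, Cd163, Alb and Ttr were named after their values were seen. Close paralogs may share probe signal.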

Additional observations from a re-analysis of the deposited data

How the results depend on the processing

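Quantile normalization, median centring, averaging a gene's features and a robust prior variance left the number of lipid synthesis genes that fell within 1.5 times of 11, as did the stricter filter (12), a variance trend (15) and a 1.5-fold cutoff without a test (9). It was 6 with no filter, 5 with the replicate number as a block (3 sterol and 2 fatty acid enzymes) and 0 to 2 with an array left out. Over all genes, 852 passed, against 333 with no filter, 1475 with the stricter filter of 5 log2 units, 312 with the replicate block, 1584 with a variance trend and 96 to 174 with an array left out. The replicate numbers share only a label: deviations of same-numbered arrays correlated at -0.036, and with 2 pairs no pairing was assumed. Leaving out an array gave medians from -0.53 to -0.43 for sterol enzymes and from -0.34 to -0.24 for fatty acid enzymes, and from -0.29 to -0.10 for the difference between the branches. The fatty acid median was -0.23 with the stricter filter, which drops Scd1, -0.33 with median centring and -0.17 with Acly and Acss2 included. The branch difference was -0.23 with the stricter filter and -0.29 with Acly and Acss2 included, and no setting left out Me1. Of the member differences, 5 changed sign with an array left out, all of genes that did not pass: Ebp (-0.0086 to 0.20) and Scap (-0.031 to 0.16), both negative without control replicate 2, Acss2 (-0.12 to 0.039), positive without control replicate 1 (0.020) and without knockout replicate 1, and Elovl1 (-0.090 to 0.019), positive without control replicate 1. The stricter filter drops Scd1, and the cause of the other changes was not tested. Scd1 was the dimmest of these features, with knockout values close to the filter level of 3.53.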
